A study of Mus musculus with 16 samples.

Results

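Wt1, Tcf21, Tbx18 and Efemp1 are 4 genes of the epicardium, the mesothelial sheet that covers the heart, and of the mesenchymal cells that descend from it. They were followed across 6 mouse cell groups on 16 arrays. The genes were chosen with earlier results of these data known. Their probes were found by symbol: 5 of the 26423 probes carry these names in the array's probe-to-gene table. There was 1 each for Wt1, Tcf21 and Efemp1 and 2 for Tbx18, which makes 4 of the 17710 genes that could be named. The series compared cells sorted as cardiac progenitors with bone marrow populations and with cardiomyocytes.

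Every sample came from C57BL/6 mice whose genotype is given as normal. From the heart there were 3 arrays of Sca1 cells (positive for stem cell antigen 1, without CD45, which marks leukocytes, and without CD31, which marks endothelium), 3 arrays of c-kit cells (sorted on the stem cell factor receptor alone) and 2 arrays of side population (SP) cells, recognised by pumping out a Hoechst dye. From bone marrow there were 3 arrays of mesenchymal stem cells (MSC) taken after 5 passages in culture and 3 arrays of sorted c-kit cells. The 2 arrays of cardiomyocytes, spun down at low speed, are the control. The labels give the same culture entry, Matrigel-coated dishes with mTeSR medium, for every sample. The sources used here give neither ages nor cell numbers. They do not state that replicates were separate mice or cultures either. A p-value here weighs a group difference against the scatter of arrays within groups, pooled over the groups, and that scatter may be technical.

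As background, the epicardium forms from mesothelial cells that spread over the developing heart, and some of its cells undergo an epithelial to mesenchymal transition and move into the muscle wall. Wt1 encodes a zinc finger transcription factor of the epicardium that is needed for this transition, and it has also been described in endothelial cells of the heart. Tcf21 encodes a basic helix-loop-helix (bHLH) factor needed for epicardial cells to become cardiac fibroblasts, Tbx18 encodes a T-box repressor used to mark the epicardial lineage, and Efemp1 encodes fibulin 3, a secreted glycoprotein of the extracellular matrix.

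Levels are quantile normalised log2 intensities of the Cy5 channel, with the array median at -0.07 and the 30th percentile at -2.32. The median spot intensity was 15 to 200 units between arrays and was lowest on the SP arrays (15 and 22) and on heart c-kit replicate 2 (18). A single repeated value, the fill value, stood at 3.38% to 13.8% of the probes of an array. It was taken as marking spots with no usable signal. The mean level of 5 measured cardiomyocyte markers of 8 was 5.30 to 5.55 on the cardiomyocyte arrays and at most 2.14 on every other array. The cardiomyocyte arrays also carried endothelial markers (mean of 8 of 8 markers, 6.28 to 6.84), fibroblast markers (17 of 18, 4.73 to 5.43) and leukocyte markers (6 of 8, 3.44 to 4.28), and the MSC arrays had the leukocyte markers at 6.65 to 7.20. In such bulk RNA, fewer cells of a type and less RNA per cell cannot be told apart.

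Of the 4 genes, 3 differed among the 6 groups. In limma's moderated F test, with p-values adjusted by Benjamini-Hochberg over all 17710 genes, Efemp1 had F = 30.7 (adjusted p = 2.5e-05), Wt1 F = 28.9 (adjusted p = 3.38e-05) and Tcf21 F = 12.8 (adjusted p = 0.00105). Tbx18, read with the brighter of its probes, had F = 2.55 and adjusted p = 0.155. Its adjusted p in the F test depended on the processing. It was 0.0409 with medians aligned, 0.0464 with values under the 30th percentile lifted to it and 0.00421 with the mean over its probes. In the main fit the F test called 31.9% of all genes. Over the 15 pairs of groups, Wt1 was called in 9, Efemp1 in 8, Tcf21 in 6 and Tbx18 in 0. This is 23 of 60 tests, while 10.6% of tests over all genes and pairs were called. The 4 genes were chosen with earlier results of these data known, and the 15 pairs of a gene share group means. Setting these shares side by side is therefore a description and not a test of the 4 genes as a set.

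**Figure D1:**
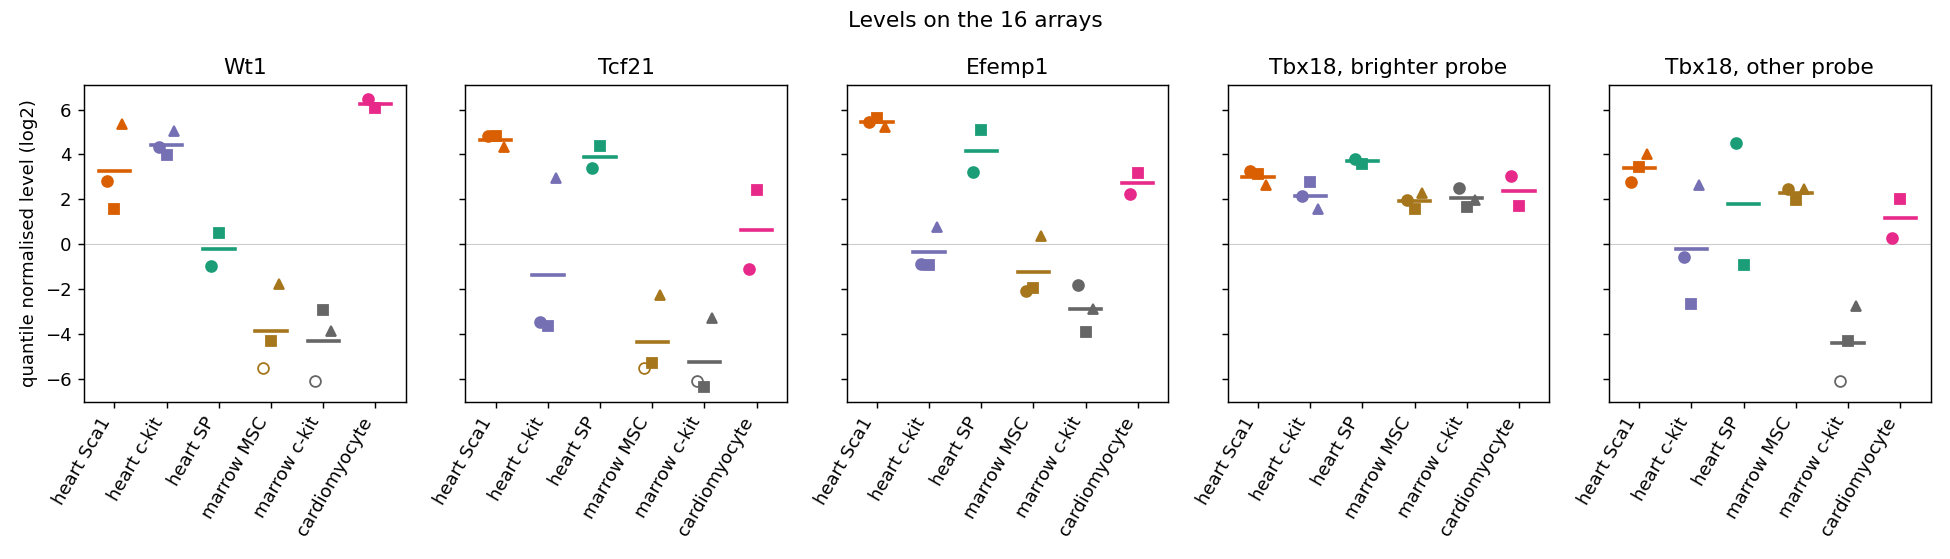
Quantile normalised log2 level (vertical axis) of Wt1, Tcf21, Efemp1 and both Tbx18 probes on the 16 arrays, by cell group (horizontal axis). Circles, squares and triangles are replicates 1, 2 and 3, open symbols lie at the fill value and bars are group means; Wt1 is high in heart c-kit cells and cardiomyocytes, Tcf21 and Efemp1 in heart Sca1 and SP cells, and the brighter Tbx18 probe stays between 1.56 and 3.82 on every array.

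Wt1 was above the array median on every heart array except SP replicate 1, and near the floor of the arrays in marrow cells. Its level was 2.83, 1.58 and 5.35 on the heart Sca1 arrays, 4.34, 3.96 and 5.03 on the heart c-kit arrays and -0.95 and 0.52 on the SP arrays. The MSC arrays gave -5.50, -4.29 and -1.78, the marrow c-kit arrays -6.08, -2.93 and -3.87, and the cardiomyocyte arrays 6.45 and 6.06. On this normalised scale the cardiomyocyte arrays were the brightest for Wt1, whereas in the deposited log2 values heart c-kit replicate 3 (5.79) lay above both of them (4.66 and 5.38). All heart c-kit arrays lay above both SP arrays, and no heart array overlapped a marrow array. Between heart c-kit and SP cells 31.5% of all genes did not overlap. In single pairs of a heart and a marrow group the share was 25.5% to 52.4%. MSC replicate 1 and marrow c-kit replicate 1 were at the fill value, and the other marrow arrays had intensities of 6 to 17 units, against 10 and 38 in SP cells.

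Heart c-kit cells exceeded marrow c-kit cells in Wt1 by 8.74 ± 1.10 on the log2 scale (SE; limma adjusted p = 0.00011), the only one of the 4 genes called in that pair, where 10.8% of all genes passed. Against MSC, the difference was 8.30 for heart c-kit cells (limma adjusted p = 0.000375; 12.1% of all genes) and 7.11 ± 1.10 for heart Sca1 cells (adjusted p = 0.000867). Within the heart, c-kit cells exceeded SP cells by 4.66 ± 1.23 (limma adjusted p = 0.0241). Wt1 did not pass between heart Sca1 and heart c-kit cells, where the difference was -1.19 with a 95% interval from -3.55 to 1.17, nor between heart Sca1 and SP cells (3.47, interval from 0.83 to 6.11; adjusted p = 0.106). SP cells were below cardiomyocytes (-6.47 ± 1.35; limma adjusted p = 0.0162; 5.17% of all genes called), and Wt1 was the only one of the 4 genes called there. With means in the order cardiomyocytes, heart c-kit, heart Sca1, SP, MSC and marrow c-kit cells, no 2 neighbours passed the test, and heart c-kit cells lay 0.16 above cardiomyocytes with medians aligned only, where quantile normalised values gave -1.81. The calls of Wt1 that involve SP cells rest on single arrays and on the fit: the 4.66 between heart c-kit and SP cells lost its call without heart c-kit replicate 3 or SP replicate 1 (adjusted p up to 0.135), and the -6.47 without SP replicate 1 or either cardiomyocyte array (up to 0.0883). SP cells exceeded marrow c-kit cells by 4.08 ± 1.23 (limma adjusted p = 0.0292), a call lost without SP replicate 2 or marrow c-kit replicate 1 or 3 (up to 0.165), with the deposited values (0.0942) and with values under the 30th percentile lifted to it (a difference of 2.10, adjusted p = 0.104). For heart c-kit minus SP cells, SP minus cardiomyocytes and SP minus marrow c-kit cells, the limma adjusted p was 0.422, 0.268 and 0.244 with array weights and 0.108, 0.165 and 0.0618 when only the groups compared were fitted.

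The level of Wt1 went with endothelial markers. The mean level of the 8 endothelial markers (Pecam1, Cdh5, Kdr, Tek, Tie1, Emcn, Vwf and Egfl7) was 0.52 to 5.54 in heart Sca1 cells, 4.63 to 5.67 in heart c-kit cells, 0.59 to 1.12 in SP cells, -1.07 to -0.49 in MSC, 0.47 to 0.79 in marrow c-kit cells and 6.28 to 6.84 in cardiomyocytes. Of the 8, 1 was at the fill value on SP replicate 1 and none on any other array. Over the 16 arrays, which share an amplification kit and a platform, Wt1 correlated with that mean at r = 0.882 (Spearman's rho 0.85), and over the 10 arrays from the heart, cardiomyocytes included, at r = 0.9 (rho 0.842). Its correlation with the leukocyte markers was 0.88 over the 10 heart arrays and -0.45 over all 16, and with the fibroblast markers -0.39 over the heart arrays. With the 5 cardiomyocyte markers it was 0.812 (rho 0.824) over all 16 arrays and 0.499 over the 10 from the heart. Single arrays departed from the endothelial pattern. Heart Sca1 replicates 1 and 2 had endothelial means of 0.52 and 2.31 but Wt1 levels of 2.83 and 1.58. SP replicate 1 and marrow c-kit replicate 1 had endothelial means of 0.59 and 0.53, with Wt1 at -0.95 and, at the fill value, -6.08. The part of endothelial, leukocyte or other cells in the Wt1 result was not tested.

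Heart Sca1 replicate 3 stood apart from the other arrays of its group in the same genes. Wt1 was 3.15 higher there than the mean of replicates 1 and 2, and 2.30% of all genes were higher there by as much or more. Genes lower by as much were not counted. Of the 8 endothelial markers, Emcn, Cdh5, Kdr, Tie1, Vwf, Egfl7 and Pecam1 were 2.90 to 5.97 higher and Tek 0.38 higher. Pecam1, which encodes the CD31 that the sort selects against, was 1.57 and 3.39 on replicates 1 and 2 and 5.38 on replicate 3. The mean of the 6 leukocyte markers was -0.42, -0.19 and 2.73 on replicates 1, 2 and 3, and Ptprc, which encodes the CD45 that the sort also selects against, was 0.40, -0.89 and 2.94. For Tcf21, Tbx18 and Efemp1 the same gap was -0.48, -0.55 and -0.33. Without that array, Wt1 in heart Sca1 cells still exceeded MSC by 6.06 (limma adjusted p = 0.00419) and marrow c-kit cells by 6.50 (adjusted p = 0.00124), and the difference from heart c-kit cells was -2.24 (adjusted p = 0.262).

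**Figure D2:**
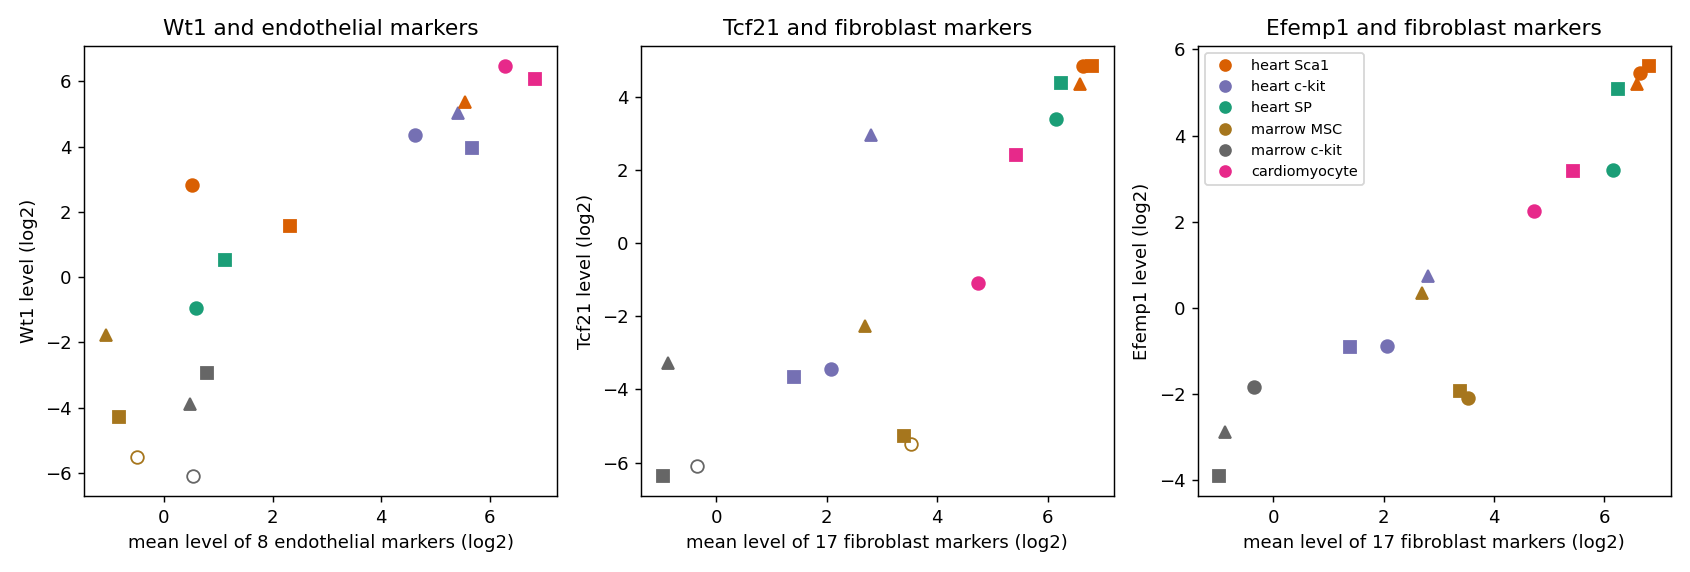
Log2 level of Wt1 against the mean log2 level of 8 endothelial markers, and of Tcf21 and Efemp1 against the mean of 17 fibroblast markers, with 1 point per array (16 arrays, colours are cell groups, symbols are replicate numbers and open symbols lie at the fill value). Heart Sca1 replicate 3 (triangle) lies with the heart c-kit arrays for Wt1, and heart Sca1 and SP arrays lie at the upper right for Tcf21 and Efemp1.

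Tcf21 showed another order, with heart Sca1 and SP cells at the top. It was 4.83, 4.83 and 4.34 on the heart Sca1 arrays, -3.44, -3.65 and 2.95 on the heart c-kit arrays and 3.38 and 4.37 on the SP arrays. It was -5.50, -5.26 and -2.26 for MSC, -6.08, -6.36 and -3.29 in marrow c-kit cells, and -1.09 and 2.40 in cardiomyocytes. The heart Sca1 arrays lay close together, whereas heart c-kit replicate 3 lay far above the other arrays of its group, with 724 intensity units against 20 and 2. That array was also the highest of its group in the fibroblast marker mean (2.80, against 2.07 and 1.40) and in Efemp1 (0.75, against -0.89 and -0.90). In the endothelial marker mean it was not (5.41, against 4.63 and 5.67). What set this array apart was not tested. On the marrow arrays Tcf21 was at the fill value on replicate 1 of both groups and had 1 to 12 units on the others, so its size of difference from marrow is uncertain.

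Heart Sca1 cells exceeded heart c-kit cells in Tcf21 by 6.05 ± 1.56 (SE, with limma adjusted p = 0.0232). Their arrays did not overlap, which held for 32.7% of all genes (14.5% with heart Sca1 cells higher). Together with Efemp1, Tcf21 made 2 of the 4 genes called in this pair, where 11.1% of all genes passed. Heart Sca1 and SP cells did not differ beyond the spread (0.79, interval from -2.96 to 4.54). Against MSC, Tcf21 was higher by 9.00 ± 1.56 in heart Sca1 cells (limma adjusted p = 0.002) and by 8.22 ± 1.75 in SP cells (adjusted p = 0.00575; 17.7% of all genes called). Heart c-kit cells were not called against marrow c-kit cells (3.86 ± 1.56; adjusted p = 0.148) or cardiomyocytes (-2.04; adjusted p = 0.648). Marrow c-kit cells lay below cardiomyocytes (-5.90 ± 1.75; limma adjusted p = 0.0401), a call lost in 9 of 16 fits that left out an array (adjusted p up to 0.295), among them those without either cardiomyocyte array or without marrow c-kit replicate 1 or 2. With values under the 30th percentile lifted to it the difference was -2.97 (limma adjusted p = 0.215). In the order heart Sca1, SP, cardiomyocyte, heart c-kit, MSC and marrow c-kit, no 2 neighbours passed.

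Single arrays decide part of this. Without heart c-kit replicate 3, the difference between heart Sca1 and heart c-kit cells in Tcf21 grew to 8.21 (limma adjusted p = 0.000736), and that between heart c-kit and SP cells, -5.26 with adjusted p = 0.0679 on all arrays, became -7.42 with adjusted p = 0.00285. Without heart c-kit replicate 1 or 2, or without any 1 of the heart Sca1 arrays, the difference from heart c-kit cells was no longer called (adjusted p up to 0.09). It was not called either when only those 6 arrays were fitted (adjusted p = 0.106).

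Efemp1 had the same order of group means as Tcf21, with smaller standard errors. Its level was 5.46, 5.61 and 5.20 on the heart Sca1 arrays, -0.89, -0.90 and 0.75 on the heart c-kit arrays and 3.20 and 5.08 on the SP arrays. It was -2.08, -1.93 and 0.36 for MSC, -1.82, -3.89 and -2.89 in marrow c-kit cells, and 2.25 and 3.17 in cardiomyocytes. Efemp1 was never at the fill value. It was dim, however, at 17, 6 and 10 intensity units in marrow c-kit cells, 14 on MSC replicate 1 and 12 on heart c-kit replicate 2. Sizes of difference from these arrays are therefore uncertain. All 3 heart Sca1 arrays lay above every array of the other groups on the normalised scale. In single pairs, heart Sca1 cells lay above the other group without overlap for 14.5% to 20.8% of all genes. In the deposited log2 values SP replicate 2 (5.89) lay above the heart Sca1 arrays (5.72, 5.68 and 5.29), and with medians aligned only, Efemp1 in heart Sca1 minus SP cells was -0.13, against 1.28 with quantile normalised values.

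Heart Sca1 cells exceeded heart c-kit cells in Efemp1 by 5.77 ± 0.80 (SE; limma adjusted p = 0.000431) and MSC by 6.64 ± 0.80 (adjusted p = 0.000137). SP cells exceeded MSC by 5.36 (limma adjusted p = 0.00128) and marrow c-kit cells by 7.01 (adjusted p = 8.2e-05), and heart c-kit cells lay below SP cells (-4.49 ± 0.90; adjusted p = 0.00514). Heart c-kit and marrow c-kit cells differed by 2.52 without a call (limma adjusted p = 0.0626). Their arrays did not overlap, which held for 25.5% of all genes. Heart c-kit cells and MSC differed by 0.87 (interval from -0.86 to 2.60). Marrow c-kit cells lay below cardiomyocytes (-5.58 ± 0.90; limma adjusted p = 0.000883), as did MSC (-3.93; adjusted p = 0.0164), a call lost without MSC replicate 1 or 2 or either cardiomyocyte array (up to 0.0987), with medians aligned (0.0921) and with the deposited values (0.0805). Neither heart Sca1 cells (2.71; adjusted p = 0.254) nor SP cells (1.43; adjusted p = 0.443) were called against cardiomyocytes, and no 2 neighbours in the order of means were. The gap between heart c-kit and SP cells lost its call with array weights (adjusted p = 0.165) and with a fit of those 5 arrays alone (adjusted p = 0.146).

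Tcf21 and Efemp1 moved together over the arrays. Their correlation over 16 arrays was r = 0.94 (rho 0.935), and 0.0619% of all genes had a higher r with Tcf21. Wt1 correlated with Tcf21 at 0.595 and with Efemp1 at 0.58, and Tbx18 with Wt1, Tcf21 and Efemp1 at 0.177, 0.55 and 0.668. These are descriptions over groups that differ in many genes at once, and so carry no p. Because Tcf21 and Efemp1 shared the closest pattern, the 250 bases before their transcription starts are shown, from RefSeq for GRCm38.p6, which gave entries for Tcf21, Efemp1 and Tbx18. The Tcf21 window is chr10:22820144-22820393 on the minus strand and the Efemp1 window chr11:28852955-28853204 on the plus strand, both written 5′ to 3′ on the strand of the gene.
Tcf21: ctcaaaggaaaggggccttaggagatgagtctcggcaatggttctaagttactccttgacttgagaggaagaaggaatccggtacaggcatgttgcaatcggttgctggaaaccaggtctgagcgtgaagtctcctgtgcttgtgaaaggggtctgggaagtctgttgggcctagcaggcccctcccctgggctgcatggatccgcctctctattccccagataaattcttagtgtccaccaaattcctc
Efemp1: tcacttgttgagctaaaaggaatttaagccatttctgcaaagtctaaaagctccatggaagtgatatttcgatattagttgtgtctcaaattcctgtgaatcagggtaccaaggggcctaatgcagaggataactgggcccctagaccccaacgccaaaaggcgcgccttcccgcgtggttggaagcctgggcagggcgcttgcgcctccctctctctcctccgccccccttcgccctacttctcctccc
Their GC contents were 52.4% and 53.6%, with a median of 52.4% over 32851 promoter windows of the same length. Searched on both strands, neither window, nor that of Tbx18, held the E-box CAGCTG (13% of all windows), the T-box site AGGTGTGA (1.12%), the TEAD motif CATTCC (12.6%) or the zinc finger motifs GCGGGGGCG (2.57%) and GCGTGGGAG (0.405%), which says only that these letters are not in these bases.

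The levels of Tcf21 and Efemp1 went with fibroblast markers. The mean level of 17 measured markers of 18 was 6.59 to 6.81 in heart Sca1 cells, 1.40 to 2.80 in heart c-kit cells, 6.16 to 6.24 in SP cells, 2.70 to 3.54 in MSC, -0.97 to -0.34 in marrow c-kit cells and 4.73 to 5.43 in cardiomyocytes. All 17 lay above the array median on every heart Sca1 array. Over 16 arrays the mean correlated with Tcf21 at r = 0.833 and with Efemp1 at 0.917, and over the 10 heart arrays at 0.858 and 0.973. The part of fibroblasts in these differences was not tested. In MSC, whose fibroblast markers lay between those of heart c-kit and SP cells in mean level, Tcf21 was -5.50 to -2.26.

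Tbx18 gave no call in any of the 15 pairs with its brighter probe, and its probes disagree. The brighter probe read 3.25, 3.13 and 2.64 in heart Sca1 cells, 2.14, 2.78 and 1.56 in heart c-kit cells, 3.82 and 3.57 in SP cells, 1.97, 1.57 and 2.28 for MSC, 2.52, 1.68 and 1.98 in marrow c-kit cells and 3.04 and 1.68 in cardiomyocytes. SP cells were highest and did not overlap any other group. In the single pairs with SP cells, 31.5% to 52.4% of all genes did not overlap. The difference of SP cells from MSC was 1.76 ± 0.60 (limma adjusted p = 0.0581) and from marrow c-kit cells 1.64 (adjusted p = 0.069). Between heart Sca1 cells and MSC the difference was 1.06, with an interval from -0.09 to 2.22.

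The other Tbx18 probe read 2.77, 3.43 and 4.03 in heart Sca1 cells, -0.58, -2.64 and 2.65 in heart c-kit cells, 4.51 and -0.92 in SP cells, 2.46, 1.99 and 2.46 for MSC, -6.08, -4.29 and -2.74 in marrow c-kit cells and 0.27 and 2.03 in cardiomyocytes. Its SP arrays, at 1088 and 14 intensity units, lay apart, and in marrow c-kit cells it was at the fill value on replicate 1 and at 5 and 11 units on the others. With this probe, chosen as an alternative after the data were seen, the F test gave 7.63 (limma adjusted p = 0.00773), and marrow c-kit cells were called lower than heart Sca1 cells, SP cells, MSC and cardiomyocytes. Heart Sca1 cells exceeded marrow c-kit cells by 7.79 ± 1.40 (limma adjusted p = 0.00123), and MSC exceeded marrow c-kit cells by 6.67 ± 1.40 (adjusted p = 0.00619), where the brighter probe gave -0.12. The probes correlated at r = 0.191 over 16 arrays. Which of them measures Tbx18 better was not tested, and their sequences were not used here.

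**Figure D3:**
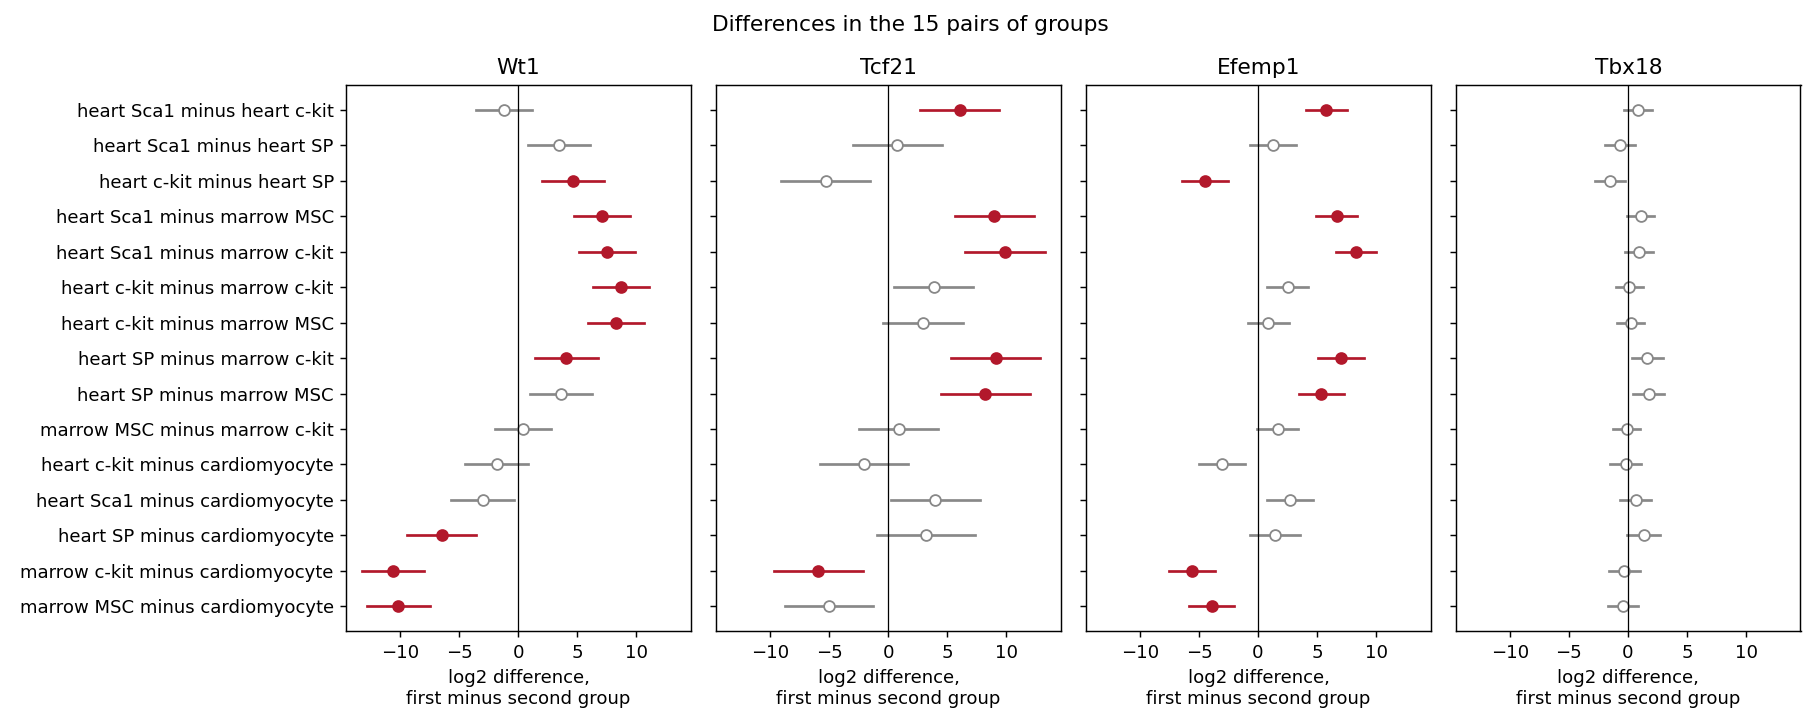
Log2 difference with its 95% confidence interval (horizontal axis) in each of the 15 pairs of groups (vertical axis, named group minus its partner) for Wt1, Tcf21, Efemp1 and the brighter Tbx18 probe. Filled red points have a limma adjusted p under 0.05 over all genes; heart Sca1 against both marrow groups is called for Wt1, Tcf21 and Efemp1, and no pair is called for Tbx18.

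The comparison named in the title of the series, heart against marrow populations, gave 3 of 4 genes called, all higher in the heart, where 20.5% of all genes were called and 9.12% were called higher. With equal weight for each population, Wt1 was higher by 6.57 ± 0.73 (SE; limma adjusted p = 2.41e-05), Tcf21 by 7.18 ± 1.04 (adjusted p = 0.000221) and Efemp1 by 5.12 ± 0.54 (adjusted p = 1.41e-05), while Tbx18 was at 0.95 ± 0.36 (adjusted p = 0.0772). Tbx18 was called there in some alternatives, given at the end. Heart c-kit cells, taken alone, had the Wt1 difference and no call for Tcf21 or Efemp1 against either marrow group. Of single pairs, heart Sca1 cells had 3 of 4 genes higher than MSC (10.3% of all genes called, 5.3% higher) and 3 of 4 higher than marrow c-kit cells (16.5% called, 10% higher). SP cells also had 3 of 4 higher than marrow c-kit cells (21.2% called, 9.92% higher). MSC and marrow c-kit cells differed in 0 of 4, where limma called 11% of all genes and the smallest unadjusted p of the 4 was 0.0597, for Efemp1. The interaction of organ with cell class (Sca1 or MSC against c-kit) was called for 1 of the 4 genes, Efemp1, and for 7.43% of all genes.

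Within the heart, the c-kit and SP cells differed in opposite directions, with Wt1 higher and Efemp1 lower in c-kit cells (2 of 4 genes; 11.8% of all genes called). Both calls were lost with array weights and when only those 5 arrays were fitted, as given above. Heart Sca1 and SP cells differed in 0 of 4 genes in limma's test (6.83% of all genes called), with Wt1 alone under an unadjusted p of 0.05.

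Against cardiomyocytes, the mean of the heart populations gave 0 of 4 genes called by limma, where 0.678% of all genes were called. Wt1 was -3.76 ± 1.07 (unadjusted p = 0.00347, adjusted p = 0.132), Tcf21 1.73 ± 1.52 and Efemp1 0.36 ± 0.78. Heart Sca1 and heart c-kit cells each had 0 of 4 called against cardiomyocytes (0% and 3.58% of all genes called by limma), although Wt1, Tcf21 and Efemp1 had unadjusted p of 0.0287, 0.038 and 0.00936 for heart Sca1 cells and Efemp1 one of 0.00444 for heart c-kit cells. For heart Sca1 cells, 2067 genes lay under an unadjusted p of 0.05. The marrow groups were lower than cardiomyocytes in Wt1 and Efemp1 (MSC, 2 of 4; 7.87% of all genes called, 3.94% lower) and in Wt1, Tcf21 and Efemp1 (marrow c-kit cells, 3 of 4; 12.4% called, 7.43% lower).

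Other genes of the epicardium and mesothelium were also followed. Their list, like those below, was written with earlier results of these data known, and all 20 of its genes were measured. Their mean level was -0.87, -1.13 and 0.93 on heart Sca1 replicates 1, 2 and 3, with 8, 5 and 15 genes above the array median, so that the array that stood apart was the high one. It was -2.38 to -1.50 in heart c-kit cells, -1.24 to -0.89 in SP cells, -1.93 to -1.46 in MSC, -1.93 to -1.33 in marrow c-kit cells and -0.61 to 0.53 in cardiomyocytes. Over 16 arrays this mean correlated with Efemp1 at r = 0.62 (rho 0.697), with Wt1 at 0.497, with Tcf21 at 0.485 and with Tbx18 at 0.267. Msln, which encodes the mesothelial surface protein mesothelin, averaged -0.54 ± 1.60 in heart Sca1 cells, against -1.63 ± 1.04 for MSC and -2.31 ± 0.48 for marrow c-kit cells (SD, n = 3 each). Its means were -0.32 in heart c-kit cells, -0.42 in SP cells and -0.32 in cardiomyocytes. Msln did not pass the F test over the groups (limma adjusted p = 0.326). Bnc1, a zinc finger gene of mesothelium, was at the fill value on 10 of 16 arrays. Upk3b, a uroplakin of mesothelium, split the heart Sca1 arrays into 2.32, -1.97 and 4.23, and was 2.47 and 3.92 in cardiomyocytes.

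Between heart Sca1 and heart c-kit cells, 4 of the 20 epicardial genes were higher and 0 lower, with a median difference of 1.43, against -0.23 over all genes, of which 11.1% were called and 7.81% called higher. Without heart Sca1 replicate 3, 3 were higher and 0 lower and the median was 0.18, with 7.59% of all genes called. The 4 were Rspo1, a secreted enhancer of Wnt signalling (6.95 ± 1.51; limma adjusted p = 0.00933), Ezr, the membrane linker ezrin (5.68), Sema3d, a guidance ligand (3.82), and Scx, the tendon factor scleraxis (3.34). Rspo1 and Ezr averaged -4.62 and -4.85 in heart c-kit cells, under the 30th percentile of the arrays, so the size of their differences is uncertain. Against marrow, where 9.12% of all genes were called higher and 11.4% lower, the pooled heart populations had 3 higher, Sema3d (4.41 ± 0.49; limma adjusted p = 2.29e-05), Upk3b (3.02) and Aldh1a2, a retinoic acid synthesising enzyme (2.74), and 1 lower, the integrin gene Itga4 (-5.27). Aldh1a2 was highest in heart Sca1 cells, at 6.72 ± 0.37 (SD, n = 3) against 2.53 ± 0.99 in MSC and 4.73 ± 1.23 in cardiomyocytes (n = 3 and n = 2).

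**Figure D4:**
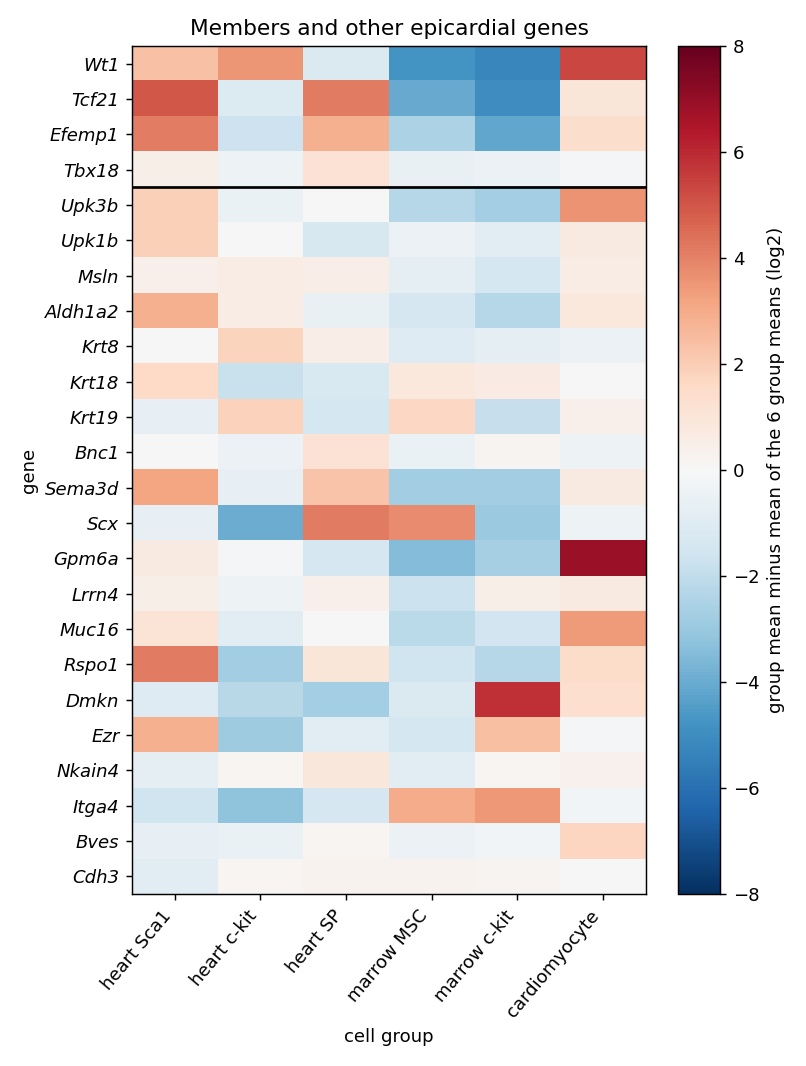
Heat map of the 4 genes (above the black line) and 20 other epicardial and mesothelial genes (vertical axis) in the 6 cell groups (horizontal axis), coloured by the group mean minus the mean of the 6 group means on the log2 scale. The rows of Tcf21 and Efemp1 resemble each other, Wt1 is blue in both marrow groups, and the rows below the line differ from gene to gene.

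Genes of the epithelial to mesenchymal transition were higher in heart Sca1 than in heart c-kit cells in 7 of 16 cases and lower in 0 (11.1% of all genes called, 7.81% higher), with a median of 2.25. Tgfb2 and Tgfb3, transforming growth factor ligands, differed by 7.81 and 6.29 and Zeb2, a repressor of epithelial genes, by 6.14 (limma adjusted p = 0.00628, 0.000191 and 0.00213). In the pooled heart populations against marrow 7 of 16 were higher and 0 lower (9.12% of all genes higher). Heart c-kit cells alone, however, had 1 higher and 5 lower than MSC (4.11% of all genes higher, 8% lower). MSC had 9 higher than marrow c-kit cells (7.35% of all genes higher).

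Of 12 known Wt1 targets, 10 were measured (Spry1 and Areg were not analysed here). Between heart c-kit and marrow c-kit cells, the pair in which Wt1 differed by 8.74, the list had 1 gene higher and 2 lower (10.8% of all genes called), with a median of 0.27 (-0.08 with the deposited values) against 0.11 over all genes: Aldh1a2 was 2.83 higher (limma adjusted p = 0.0406), while Itga4 was -6.71 and Bcl2, an inhibitor of cell death, -6.75 (adjusted p = 0.000271 and 0.001). Podxl, the sialomucin podocalyxin, was 2.73 higher in the pooled heart populations than in marrow (limma adjusted p = 0.00642). The mean of the targets correlated with Wt1 at r = 0.11 over 16 arrays and at 0.507 over the 10 from the heart. These counts and this mean take no account of whether Wt1 raises or lowers a target. Of partners of the 4 proteins, with 10 of 11 measured, 5 were higher in the pooled heart populations than in marrow and 0 lower (9.12% of all genes higher). Against MSC alone, heart Sca1 cells had 0 higher and 0 lower (10.3% of all genes called), heart c-kit cells 1 and 1 (12.1%), and SP cells 0 and 1 (17.7%). MSC had 4 higher than marrow c-kit cells (7.35% of all genes higher). The 5 included Egfr, the receptor of epidermal growth factor (4.17), Wtip, a LIM protein that binds Wt1 (2.57), and Tcf4, a bHLH dimer partner (1.86). Without a scaling beyond the alignment of medians, 0 of the partners were called between heart Sca1 and heart c-kit cells, where quantile normalised values gave 2 (Egfr and Timp3, with 11.1% of all genes called).

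Among the other T-box genes, Tbx20, a regulator of heart development, and Tbx15, a close relative of Tbx18, took opposite sides. Tbx20 was 5.84 ± 0.38 in heart Sca1 cells, -0.26 ± 3.65 in heart c-kit cells and 6.28 ± 0.16 in SP cells (SD; n = 3, n = 3 and n = 2). It was -3.67 ± 1.12 in MSC, -5.18 ± 1.41 in marrow c-kit cells and 3.70 ± 0.56 in cardiomyocytes. The pooled heart populations exceeded marrow in Tbx20 by 8.38 ± 0.89 (limma adjusted p = 1.58e-05). Tbx15 was 7.47, 6.98 and 7.42 on the MSC arrays and at most 2.83 on every other array, and heart Sca1 cells lay below MSC (-4.87 ± 0.58; limma adjusted p = 0.000115). Over the 16 T-box genes, 3 were higher and 1 lower in heart Sca1 than in heart c-kit cells (11.1% of all genes called), with a median of -1.23.

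The bHLH relatives of Tcf21 had 4 of 9 genes higher and 0 lower in heart Sca1 than in heart c-kit cells (11.1% of all genes called, 7.81% higher). Tcf24 differed by 5.85, Hand2, needed for the heart chambers, by 5.37 and Msc, which encodes musculin, by 5.20 (limma adjusted p = 0.00164, 0.00712 and 0.0025). In heart c-kit against SP cells 3 were lower (5.79% of all genes lower), Scx by the most (-8.14 ± 1.01; limma adjusted p = 0.000179). Scx was also high in MSC, at 6.11 ± 0.27 (SD, n = 3), where Tcf21 was near the floor.

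Fibulins and elastic fibre genes, the company of Efemp1, were higher in heart Sca1 than in heart c-kit cells in 15 of 19 cases and lower in 0 (11.1% of all genes called, 7.81% higher), with a median of 4.9. Without heart Sca1 replicate 3 the count was again 15 higher and 0 lower (7.59% of all genes called). Mfap5 and Mfap4, microfibril proteins, differed by 8.78 and 7.71, and Eln, elastin itself, by 7.02 (limma adjusted p = 0.000186, 0.00888 and 5.18e-05). In heart c-kit against SP cells 13 were lower and 1 higher (5.79% of all genes lower). In the pooled heart populations against marrow 10 were higher and 0 lower (9.12% of all genes higher), but heart c-kit cells alone had 0 higher and 8 lower than MSC (8% of all genes lower). Efemp2, which encodes fibulin 4 and is a close relative of Efemp1, differed from it: it was 6.30 ± 0.22 in MSC, against 5.14 ± 0.27 in heart Sca1 cells and 3.29 ± 0.57 in cardiomyocytes. The list mean correlated with Efemp1 at r = 0.932 over 16 arrays and at 0.99 over the 10 heart arrays. The fibroblast genes had 13 of 17 higher in heart Sca1 than in heart c-kit cells (median 4.94), and 9 of 17 without heart Sca1 replicate 3.

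The genes most like each of the 4 were listed by Pearson's r over the 16 arrays among 16160 genes off the fill value on at least 12 of them. For Wt1 they were Ptprb, an endothelial phosphatase (0.935), Ifit1 (0.935), Calcrl, a receptor of adrenomedullin and calcitonin gene related peptide (0.923), Ushbp1 (0.921) and Pim3 (0.917). For Tcf21 they were Lama2, a laminin chain (0.961), Enpp3 (0.96), Frzb, a secreted Wnt binder (0.956), Tbx20 (0.952) and Kcne4 (0.95). For Efemp1 they were Entpd2, an ectonucleotidase (0.983), Lama2 (0.964), Pi15 (0.961), Fbln1, which encodes fibulin 1 (0.953), and Tgfbr3, betaglycan (0.953). For Tbx18 the closest were looser, with Tusc3 at 0.863, Akr1cl at 0.853, Wfdc1 at 0.841, Naaladl2 at 0.834 and Shc2 at 0.833. Fbln1, for example, averaged 5.42 ± 0.13 in heart Sca1 cells and 5.62 ± 0.58 in SP cells, against -2.22 ± 1.01 for MSC and -2.87 ± 1.30 for marrow c-kit cells.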

How the data were processed

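Mouse RNA was read on 16 arrays in 6 cell groups, grouped by the sample titles. Per the labels' protocols, the WT-Ovation Pico kit amplified the total RNA and the cDNA was coupled to Cy5, and the series text says that only this channel was used. The deposited values are log2 intensities; their centring is not stated in the sources used here and was read from the values. Raised back with the lowest value that was not the fill value taken as 1, intensities under 200 units were whole numbers within 0.005. The sources used here give no scanner, background correction or build.

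Of 26423 probes, 20339 were named through the platform table and a GRCm38 gene table, 18213 by current symbol and 2126 by synonym. The remaining 6084 were not, 38 of them ambiguous. Of 17710 genes, 2273 had several probes and the brightest by mean was used. Values were quantile normalised over all probes, and 6 group means were fitted to all arrays with limma 3.58.1 in R 4.3.3 (eBayes prior degrees of freedom 3.81). Within a comparison, p-values of all 17710 genes were adjusted (Benjamini-Hochberg), and a gene was called under 0.05. Differences run as named, with 95% intervals from the moderated fit. The number of arrays limits precision. Detection flags were not used here. Genes named are the 4 with every probe, up to 3 called genes of a list with the largest difference and the 5 most correlated genes; single genes outside this rule (Msln, Bnc1, Upk3b, Efemp2, Scx, Tbx15, Timp3 and the levels of Aldh1a2) were chosen after their values were seen. The members and lists were chosen with earlier results of these data known.

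The fit was tested on simulated data with known differences. For log2 differences of 1, 2, 4 and 6 between heart Sca1 and heart c-kit cells it called 0%, 4.67%, 47.3% and 81.3%. Between SP cells and cardiomyocytes it called 0%, 0.667%, 37.3% and 70%. A pair without a call can therefore still differ. In the simulation all groups had the same mean for each gene, with normal noise, apart from a small share of genes that were changed. In the data 11.1% and 5.17% of all genes were called in these pairs, so the rates need not hold for the real fit. Alternatives were 2 other scalings, 2 treatments of dim values, the mean over probes, trend and robust moderation, array weights per group, a replicate block, fits of only the groups compared, leaving out each array, and, added after seeing the data, the other Tbx18 probe and list counts without heart Sca1 replicate 3.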

Additional observations from a re-analysis of the deposited data

Results flagged for a closer look

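The difference between the Sca1 or MSC class and the c-kit class was larger in the heart than in marrow for Efemp1. It was 5.77 in the heart (heart Sca1 minus heart c-kit cells) and 1.65 in marrow (MSC minus marrow c-kit cells), and the interaction term of the limma fit, which tests the difference of these differences, was 4.12 ± 1.14 (SE; adjusted p = 0.0421). The same term was called for 7.43% of all genes. It lost its call with medians aligned (3.78, adjusted p = 0.13), with the deposited values (4.41, adjusted p = 0.0853), with array weights (adjusted p = 0.0534) and in 11 of 16 fits that left out an array, over which adjusted p ranged from 0.0193 to 0.111. The term was 5.14 for Tcf21 (limma adjusted p = 0.201), -1.63 for Wt1 (adjusted p = 0.626) and 0.96 for Tbx18 (adjusted p = 0.535).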

How the results depend on the processing

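Of the 23 calls of the 4 genes over the 15 pairs, 16 held in every alternative run, and 23 of the 37 pairs not called stayed so. With an array left out, the number of pairs called was 7 to 10 for Wt1, 4 to 8 for Tcf21, 0 to 1 for Tbx18 and 7 to 9 for Efemp1, and the F test and the pooled comparisons gave 3 calls in each such fit. Tbx18 moved most: 3 pairs were called with medians aligned, 2 without the lowest 30% of genes, 3 when values under the 30th percentile were lifted to it, 4 with the mean over probes and 4 with its other probe. Its difference between MSC and marrow c-kit cells turned to 3.28 with the mean over probes and 6.67 with the other probe, because these use another probe. With low values raised, 5 of the 8 pooled tests were called in place of 3, since Wt1 was then called lower than cardiomyocytes (-3.76, adjusted p = 0.026) and Tbx18 higher than marrow. The pooled heart populations were also called higher than marrow in Tbx18 with medians aligned (limma adjusted p = 0.0275), without the lowest 30% of genes (0.046) and with the mean over probes (0.0147). With the replicate block, Wt1 had 10, Tcf21 8, Tbx18 0 and Efemp1 8 pairs called. Whether equal replicate numbers pair the arrays was not settled. Correlations of residuals between arrays of the same number ran from -0.183 to 0.399 with 4 of 36 above 0.1. Of the 16 arrays, 8 correlated best with their own number. In groups of 2 arrays the residuals mirror each other, so this check cannot decide. Aligning medians moved the median of all genes in heart minus marrow to 0.62 and in SP cells minus the marrow groups and cardiomyocytes to between 1.19 and 1.34, so differences of Tbx18 there are relative to that shift. Levels near the fill value limit the size of differences, of Wt1 and Tcf21 from marrow, of Efemp1 from its dim arrays and of other genes at such levels.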
